A study of Mus musculus with 6 samples.

Results

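The genes of cholesterol and fatty acid synthesis were examined in sorted mouse bone marrow progenitors with and without an active form of Notch2. The list held 33 genes: the enzymes from acetyl-CoA to cholesterol, the sensors that control them, and the enzymes that make and desaturate fatty acids. A gene was taken where a probe set carried its symbol, and no other, in the platform annotation, and it was read by the probe set of highest mean log2 intensity over the 6 arrays. In this way 32 of the 33 were measured, of 18194 genes with a probe set. Acat2 had no probe set of its own. Me1, which makes NADPH for fatty acid synthesis, lay below the 40th percentile of intensity on all 6 arrays with both of its probe sets and was not tested, so 31 genes were tested among 12835.

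The sort kept bone marrow cells positive for cKit and negative for Sca1 and for lineage markers, which the labels call myeloerythroid progenitors (MP). ICN2-positive mice were Rosa-lsl-ICN2 Mx1-cre+: they carried a Rosa26 transgene for ICN2, the intracellular part of Notch2, behind a stop cassette that the Mx1-cre recombinase removes. ICN2-negative mice were Mx1-cre+ littermates without the transgene, so both groups carried the recombinase. Mice of both groups were injected with polyIC, an inducer of interferon and thereby of Mx1-cre, 3 times, every other day, at 20 mcg per g of body weight, at 6 weeks of age, and the cells were taken 1 week after the last dose. Mx1-cre acts in many cell types that respond to interferon, not in these progenitors alone. There were 3 arrays of each genotype. The ICN2-negative mice were female and the ICN2-positive mice male, and the effects of genotype and of sex cannot be told apart. Nothing in the labels says that the 3 samples of a group were separate animals, and the p-values then measure the spread between samples, which may be technical.

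The arrays had median log2 intensities between 6.05 and 6.09, and their number limits the precision. Kit, which defines the gate, lay between 10.15 and 10.86 on every array, far above the 40th percentile (5.26 to 5.30). Of 6 genes measured for the sorted population, limma called none, and 3 were lower in ICN2-positive samples without overlap (16.9% of all genes were). Cd34 lay at 12.31 to 12.44 on the ICN2-negative and at 9.50 to 11.99 on the ICN2-positive arrays. Fcgr3 lay at 12.33 to 12.92 and at 8.25 to 11.99, and Mpo was also lower. Kit, Gata2 and Myb overlapped. Ly6a, the gene of Sca1, was listed but not measured, so the Sca1-negative side of the gate was not checked. Of 8 lineage genes measured, the B cell gene Ms4a1 and the myeloid integrin gene Itgam were below that percentile on all arrays. Limma called none of the 6 tested, and 4 had an unadjusted p under 0.05, Cd4 among them (27.4% of all genes did). Slc4a1, the red cell anion exchanger, lay at 11.34 to 12.42 on the ICN2-negative and 8.01 to 9.85 on the ICN2-positive arrays (6.39-fold), and Adgre1, a macrophage gene, at 6.97 to 7.82 and 4.78 to 6.26 (4.08-fold). The T cell gene Cd3e lay higher in ICN2-positive samples, at 5.27 to 6.14 against 6.16 to 7.52 (2.54-fold). Cd79a, a B cell gene, reached 8.74 on ICN2-negative replicate 1 and 5.42 to 6.50 elsewhere, and Cd8a lay between 5.99 and 6.34. Cd4 lay at 5.45 to 5.73 on the ICN2-negative arrays and at 5.11 to 5.24 on the ICN2-positive arrays, all of the latter below the 40th percentile. It was tested only through the ICN2-negative arrays, and no call is drawn from it. ICN2-positive replicate 1 stood apart: its correlation with the other 5 arrays over all probe sets was 0.972 to 0.988, against 0.985 to 0.995 among those 5. It also differed in granulocyte-monocyte progenitor genes (Mpo, Elane, Prtn3, Ctsg and Ms4a3, all 5 measured and above the 40th percentile on every array). Their summed intensity was 70725 to 76577 on the ICN2-negative arrays, 56503 and 51256 on ICN2-positive replicates 2 and 3, and 10375 on replicate 1. None of the 5 passed in limma at an adjusted or an unadjusted p of 0.05. Among markers of other cells, the early lymphoid genes Flt3 and Dntt fell (2 of 3 tested, where 1.77% of all genes tested fell). Limma called none of 3 megakaryocyte genes. Pf4 differed by -2.94 (log2, ICN2-positive minus ICN2-negative) without overlap, and Itga2b by 0.72 and Gp9 by -0.39 with overlap. The 5 erythroid progenitor genes tested differed by -0.13 to 0.23, and limma called none. The mast cell gene Mcpt4 lay below the 40th percentile on all ICN2-negative arrays and was tested only through the ICN2-positive ones (6.97 to 8.70), and no call is drawn from it. Of the other mast cell genes, Cma1 differed by 0.82 without overlap, Cpa3 by -0.32 and Ms4a2 by -0.027, and limma called none. In these bulk samples, fewer cells of a type and less RNA per cell cannot be told apart.

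Cells make cholesterol from acetyl-CoA through mevalonate, the isoprenoid farnesyl diphosphate, squalene and lanosterol. When membrane sterol is low, the SREBP transcription factors, encoded by Srebf1 and Srebf2, are escorted from the endoplasmic reticulum by Scap, cleaved in the Golgi and carried to the nucleus, where they switch on the genes of this route and of fatty acid synthesis. Insig proteins hold Scap back when sterol is plentiful, and Insig1 is itself a target of SREBP, so the pathway limits itself. Dividing cells need both products for new membranes.

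No gene of the list passed the test between the genotypes. Of the 31 genes tested, none was higher and none lower in ICN2-positive cells at an adjusted p of 0.05 in limma (Benjamini-Hochberg over all genes), where 4.35% of all genes tested passed. The smallest adjusted p was 0.0668, for Pmvk. At an unadjusted p of 0.05 in limma, 8 of the 31 passed (5 lower and 3 higher), against 27.4% of all genes. The 3 values of one group lay wholly above or below those of the other for 11 of the 31 genes, 4 higher and 7 lower, against 37.5% of all genes (20.6% higher and 16.9% lower). These shares lie close to the background. The median difference, ICN2-positive minus ICN2-negative, was 0.0020 on the log2 scale over the list and 0.017 over all genes tested, and 16 differences were above 0 and 15 below. With array weights, which gave ICN2-positive replicate 1 a weight of 0.24 and replicate 3 a weight of 5.72, 4 of the 31 were called (Pmvk, Srebf1, Scd1 and Stard4), while 25.4% of all genes were.

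The size of the differences was limited in both directions for most genes. Its median, regardless of sign, was 0.22 on the log2 scale over the list and 0.18 over all genes tested. A 95% interval of the difference lay wholly between -1 and 1 on the log2 scale, that is within 2-fold, for 29 of the 31 genes and for 81.1% of all genes tested. It lay within -0.5 and 0.5 for 18 of the 31 and for 50.9% of all genes. Differences larger than 0.5 were measured for 3 genes, Scd1, Fdps and Insig1, all lower in ICN2-positive cells, and for 17.9% of all genes. Scd1 and Fdps were the 2 genes whose intervals reached past a 2-fold change.

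**Figure D1:**
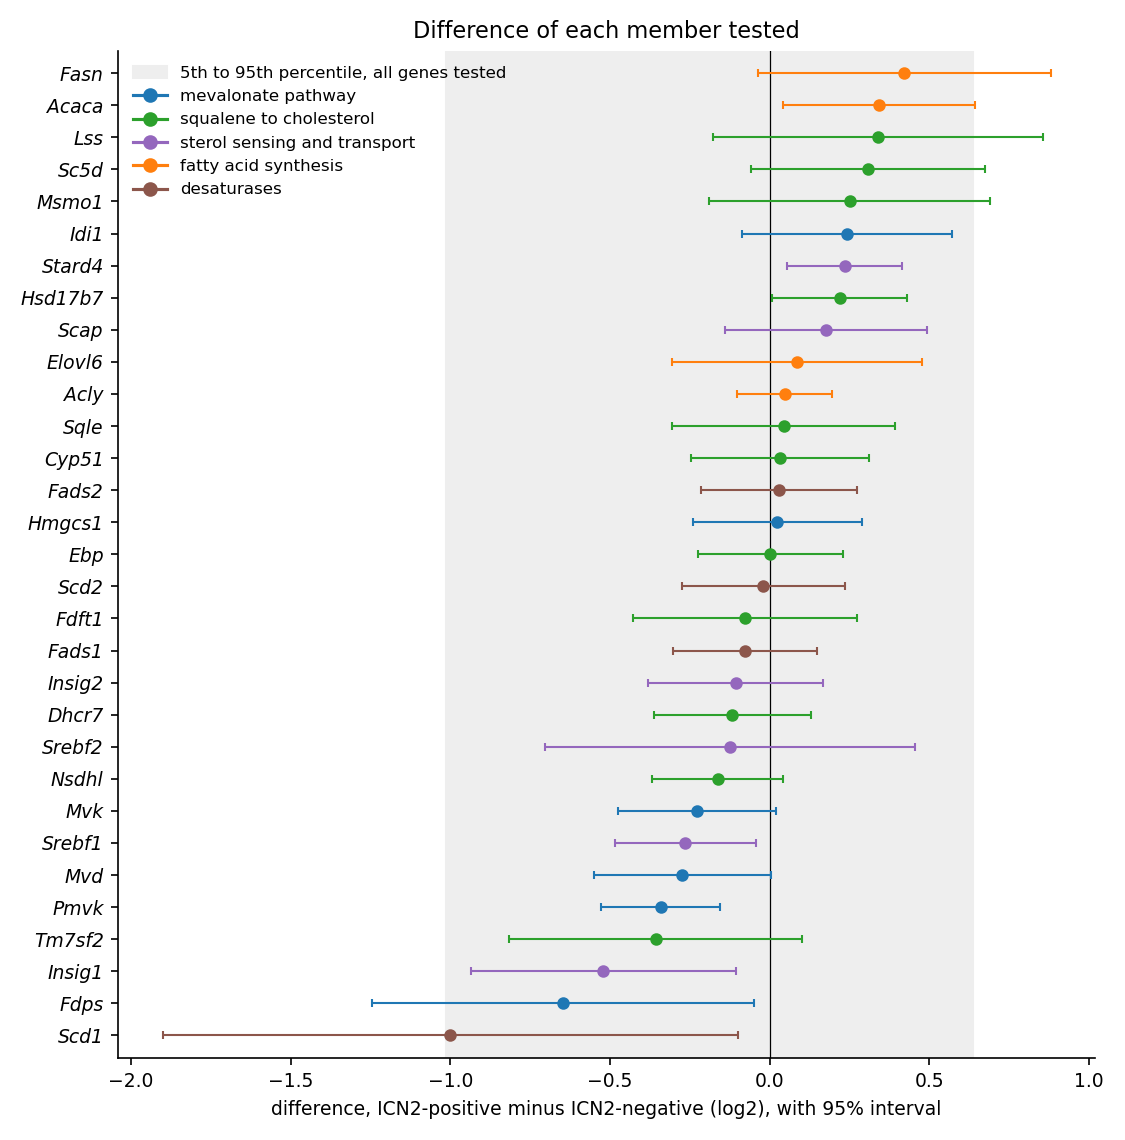
Difference in log2 intensity, ICN2-positive minus ICN2-negative (n = 3 arrays per group), for each of the 31 genes tested; points are the limma estimates, bars their 95% intervals, colours the role of the gene, and the grey band runs from the 5th to the 95th percentile of all genes tested (-1.01 to 0.64). The genes run from Scd1 at -1.0 to Fasn at 0.42, all within the band.

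Short sequence motifs, which played no part in choosing the genes, were counted in their promoters. RefSeq promoter windows (GRCm38.p6, 250 bases before to 50 after the start) were found for 26 of the 33 genes. Fdft1, Fdps, Sqle, Scd1, Scd2, Fads1 and Stard4 had none. CCAAT, the element bound by NF-Y, a partner of SREBP on sterol genes, occurred on either strand in a window of 21 of these 26 genes (80.8%), against 41.1% of 27025 genes in the table. GGGCGG, a core of Sp1 sites, occurred in 22 of 26 (84.6%) against 38.2%. The E-box CACGTG occurred in 5 of 26 (19.2%) against 8.09%. TCACNCCAC, a form of the sterol regulatory element, occurred in 1 of 26, Hmgcs1 (3.85%), against 1.44% of all genes. Counted over windows, since some genes have several, CCAAT was in 22 of 35 (62.9%) against 37.4% of 32851. Both strands were searched, and none of these motifs contains another. The background here was all genes with a window, not only those tested on the arrays, and it was not matched for base composition. A match is a description of letters, not a site. The windows of 3 genes are given to show these features beside genes with different measured values, in lower case with matches to CCAAT (or ATTGG, its other strand), TCACNCCAC and CACGTG in capitals.
Hmgcs1 (chr13:119690101-119690400, plus strand): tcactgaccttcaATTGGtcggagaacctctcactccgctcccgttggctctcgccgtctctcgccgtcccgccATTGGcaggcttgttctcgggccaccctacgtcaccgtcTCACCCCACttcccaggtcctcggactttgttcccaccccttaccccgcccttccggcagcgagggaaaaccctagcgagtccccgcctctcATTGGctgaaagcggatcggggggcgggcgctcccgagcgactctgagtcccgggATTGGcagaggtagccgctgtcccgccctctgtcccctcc
Mvk (chr5:114444019-114444318, plus strand): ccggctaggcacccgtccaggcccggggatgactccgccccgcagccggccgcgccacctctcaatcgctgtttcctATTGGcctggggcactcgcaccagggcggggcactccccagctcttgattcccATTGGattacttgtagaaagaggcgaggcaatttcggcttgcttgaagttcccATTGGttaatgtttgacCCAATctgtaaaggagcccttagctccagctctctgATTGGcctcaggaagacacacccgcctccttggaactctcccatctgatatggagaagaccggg
Insig1 (chr5:28071162-28071461, plus strand): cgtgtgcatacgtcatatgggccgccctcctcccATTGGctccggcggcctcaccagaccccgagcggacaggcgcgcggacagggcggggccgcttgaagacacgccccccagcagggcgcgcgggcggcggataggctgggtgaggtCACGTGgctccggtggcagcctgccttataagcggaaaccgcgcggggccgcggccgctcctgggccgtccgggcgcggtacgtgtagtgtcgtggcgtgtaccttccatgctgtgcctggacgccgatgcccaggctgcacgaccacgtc
The Hmgcs1 window holds the TCACNCCAC match, with its first base at position -137 from the start, and 4 CCAAT matches. Mvk has 5 CCAAT matches and no TCACNCCAC match. Insig1 has 1 CCAAT match and a CACGTG at position -101. Among genes tested that had a window, the 20 with a CCAAT match differed between genotypes by -0.52 to 0.42 (median -0.052, log2). The 4 without a match differed by 0.028 to 0.34 (median 0.13). Scd1 and Fdps, which had the largest differences of the list, had no window and are not in these ranges. With so few genes lacking the match, no conclusion is drawn.

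Of the 6 measured genes of the mevalonate pathway, the ICN2-positive mean was lower for 4 and higher for 2, and limma called none. Pmvk, phosphomevalonate kinase, had log2 intensities of 10.58, 10.58 and 10.66 on the ICN2-negative arrays and 10.25, 10.18 and 10.37 on the ICN2-positive arrays. The groups did not overlap, and every ICN2-positive array was lower. The difference was -0.34 ± 0.075 (log2, estimate ± SE, n = 3 per group), which is 1.27-fold, with an adjusted p of 0.0668 in limma. Mvd, the decarboxylase that follows Pmvk, lay at 8.35, 8.38 and 8.66 against 8.07, 8.26 and 8.24. Here too the ICN2-positive values were all lower, with a difference of -0.27 (95% interval -0.55 to 0.0034, adjusted p = 0.186 in limma). Mvk, mevalonate kinase, differed by -0.23 (adjusted p = 0.21 in limma) and its groups overlapped, since ICN2-positive replicate 1 (8.43) lay just above ICN2-negative replicate 1 (8.42). The 3 enzymes that act in turn on mevalonate thus had differences of one sign.

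Fdps, farnesyl diphosphate synthase, stands at the branch to sterols and to protein prenylation. It lay at 10.77, 10.97 and 11.38 on the ICN2-negative arrays and at 9.97, 10.60 and 10.62 on the ICN2-positive arrays. ICN2-positive replicate 1 was the lowest of all, and the groups did not overlap. The difference was -0.65 (1.57-fold, 95% interval -1.25 to -0.050, adjusted p = 0.16 in limma), and -0.43 without ICN2-positive replicate 1. Idi1, the isomerase just before Fdps, differed in the other direction, by 0.24 (95% interval -0.088 to 0.57), with overlapping groups. The other Idi1 probe set differed by 0.044. Hmgcs1, which makes HMG-CoA at the head of the pathway, lay at 12.75 ± 0.10 in ICN2-negative and 12.77 ± 0.16 in ICN2-positive samples (mean ± SD, n = 3), and the 95% interval of the difference was -0.24 to 0.29.

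The 11 enzymes from squalene synthesis to cholesterol included 7 with higher and 4 with lower means, and again none passed. Hsd17b7, a ketosteroid reductase of sterol demethylation, had the smallest p of these. It lay at 8.07, 8.02 and 7.86 in ICN2-negative and 8.15, 8.29 and 8.17 in ICN2-positive samples, without overlap. The difference was 0.22 (1.16-fold, 95% interval 0.0061 to 0.43, adjusted p = 0.174 in limma). This probe set is of a kind that may read other transcripts, and the next brightest differed by -0.091. Nsdhl, the dehydrogenase of the same step, lay at 9.95, 10.02 and 9.99 against 9.85, 9.69 and 9.93, also without overlap, and differed by -0.16 (95% interval -0.37 to 0.042).

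For the remaining genes of this stretch the groups overlapped. Lss, the cyclase that forms lanosterol, differed by 0.34 (95% interval -0.18 to 0.86), Sc5d, a late desaturase, by 0.31 (-0.060 to 0.67) and Msmo1, the methyl oxidase, by 0.25 (-0.19 to 0.69). These estimates moved with single arrays: Lss was 0.19 without ICN2-negative replicate 2 and 0.54 without replicate 3, and Msmo1 was 0.11 without ICN2-negative replicate 1 and 0.40 without replicate 3. Sc5d was 0.46 without ICN2-negative replicate 3. Tm7sf2, a sterol reductase, had the lowest estimate of the stretch at -0.36 (-0.82 to 0.10). Its ICN2-positive replicate 1 was the lowest array at 8.88, and ICN2-negative replicate 3 the highest at 9.81. Without these arrays in turn the difference was -0.23 and -0.20. Fdft1, which joins farnesyl units into squalene, and Dhcr7, the last reductase, differed by -0.078 and -0.12. Sqle, the epoxidase that limits the rate after squalene, Cyp51, the lanosterol demethylase, and Ebp, a sterol isomerase, differed by 0.044, 0.032 and 0.0020. Nsdhl and Ebp lie on the X chromosome, and the groups differ in sex.

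Among the 6 sensing and transport genes, 3 had an unadjusted p under 0.05, where 27.4% of all genes did, and none an adjusted one. Insig1, which retains Scap in the endoplasmic reticulum, lay at 12.08, 12.31 and 12.36 in ICN2-negative samples and at 11.45, 11.71 and 12.03 in ICN2-positive samples. All ICN2-positive values were lower, though the highest of them came close to the lowest ICN2-negative value. The difference was -0.52 ± 0.17 (1.44-fold, adjusted p = 0.124 in limma), and -0.38 without ICN2-positive replicate 1. Insig2, its relative, differed by -0.11 (95% interval -0.38 to 0.17), and its other probe sets past the filter by 0.20 and 0.028.

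Srebf1, the factor best known for fatty acid genes, lay at 11.03, 10.90 and 11.16 against 10.73, 10.83 and 10.74. The groups did not overlap, and the difference was -0.26 (1.20-fold, 95% interval -0.48 to -0.045, adjusted p = 0.133 in limma). Srebf2, the factor best known for cholesterol genes, lay at 10.71, 10.68 and 10.86 against 10.10, 10.96 and 10.82. Here ICN2-positive replicate 1 alone was low: the difference was -0.12 with it and 0.14 without it, and its interval with all arrays was -0.70 to 0.46. Scap, the escort of both factors, differed by 0.18 (95% interval -0.14 to 0.49), by 0.30 without ICN2-negative replicate 1 and by 0.068 without replicate 2. Stard4, a carrier that moves cholesterol between membranes, lay at 10.56, 10.74 and 10.71 against 10.88, 10.90 and 10.93. It was higher on every ICN2-positive array, and those arrays spanned only a narrow range, with a difference of 0.23 (1.18-fold, 95% interval 0.053 to 0.42, adjusted p = 0.118 in limma). The other 2 Stard4 probe sets differed by 0.21 and 0.52.

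The 4 tested genes of fatty acid synthesis all had a higher mean with ICN2, but limma called none. Acaca, acetyl-CoA carboxylase, which makes malonyl-CoA, lay at 10.91, 10.62 and 10.96 against 11.31, 11.07 and 11.13. The groups did not overlap, and the difference was 0.34 (1.27-fold, 95% interval 0.041 to 0.64, adjusted p = 0.147 in limma). Fasn, fatty acid synthase, lay at 10.91, 10.26 and 10.84 against 11.11, 11.03 and 11.13. It was higher on all ICN2-positive arrays, and ICN2-negative replicate 2 was the lowest array by a wide margin. The difference was 0.42 (1.34-fold, 95% interval -0.036 to 0.88, adjusted p = 0.21 in limma), and 0.22 without that array. Acly, which supplies cytosolic acetyl-CoA from citrate, differed by 0.046 (95% interval -0.10 to 0.19), and Elovl6, which extends palmitate, by 0.084 (95% interval -0.31 to 0.48). ICN2-negative replicate 2 was the lowest array for all 4 of these genes. The median difference of the 4 genes was 0.21, and 0.12 without that array.

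Of the 4 desaturases, Scd1 stood apart from the others in size. Scd1, which makes oleate and palmitoleate, lay at 11.42, 11.85 and 11.93 in ICN2-negative samples and at 9.96, 11.27 and 10.97 in ICN2-positive samples. No ICN2-positive value reached the ICN2-negative range, and replicate 1 was the lowest by a wide margin. The difference was -1.0 ± 0.36 (2.00-fold, 95% interval -1.90 to -0.10, adjusted p = 0.154 in limma). Without ICN2-positive replicate 1 it was -0.61 (adjusted p = 0.134 in limma). The part of the low granulocyte-monocyte gene levels of that array in the Scd1, Fdps and Insig1 differences was not tested. On the other 2 ICN2-positive arrays the granulocyte-monocyte sum was also below the ICN2-negative range. All 3 genes were low there too, which their separate groups already implied. Scd2, the related desaturase, differed by -0.020 (95% interval -0.28 to 0.24). Fads1 and Fads2, which desaturate polyunsaturated fatty acids, differed by -0.078 and 0.028, with intervals of -0.30 to 0.15 and -0.22 to 0.27.

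**Figure D2:**
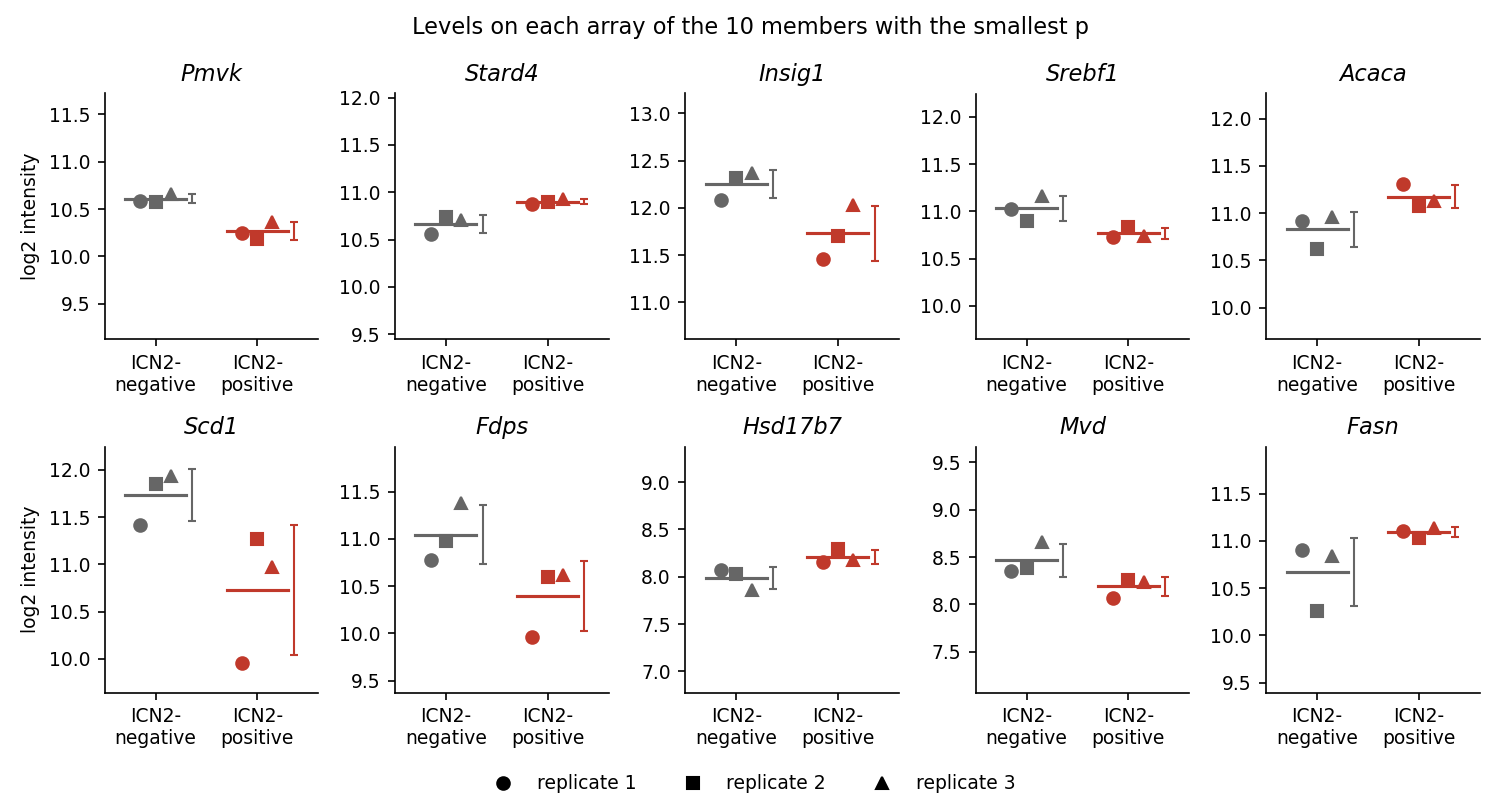
Log2 intensity on each of the 6 arrays for the 10 genes with the smallest p, with ICN2-negative arrays in grey and ICN2-positive arrays in red; symbols mark the replicate number, horizontal lines the group means, and bars the SD (n = 3), and every panel spans a range of the same width that does not start at 0. In all 10 panels the groups are separate, and the ICN2-positive replicate 1 circle lies far below the others for Scd1 and Fdps.

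Across arrays, the genes of the list varied most in ICN2-positive replicate 1. The SD over the 31 genes of the deviation from the ICN2-negative mean was 0.49 on that array, 0.25 and 0.27 on ICN2-positive replicates 2 and 3, and 0.12 to 0.15 on the ICN2-negative arrays, which themselves form the mean. It was the lowest of the 6 arrays for 11 genes and the highest for 5, so it was an extreme for 51.6% of the list and for 58.0% of all genes tested. The median deviation of the list on that array was -0.11, against -0.018 and 0.066 on the other ICN2-positive arrays. The median deviation of the 6 mevalonate genes was -0.26, -0.29 and -0.21 on the ICN2-positive arrays, though Idi1 lay above its ICN2-negative mean on replicates 1 and 3 and Hmgcs1 on replicates 2 and 3. That of the 4 fatty acid synthesis genes was 0.24, 0.16 and 0.29, with Elovl6 below its ICN2-negative mean on replicate 2. The 3' to 5' difference of the beta-actin control probe sets was 1.01 on ICN2-positive replicate 1 and 0.71 to 0.85 on the other arrays. Without ICN2-positive replicate 1, none of the 31 genes passed in limma (background 5.98%), 5 had an unadjusted p under 0.05 (background 26.4%), and the smallest adjusted p was 0.0976.

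**Figure D3:**
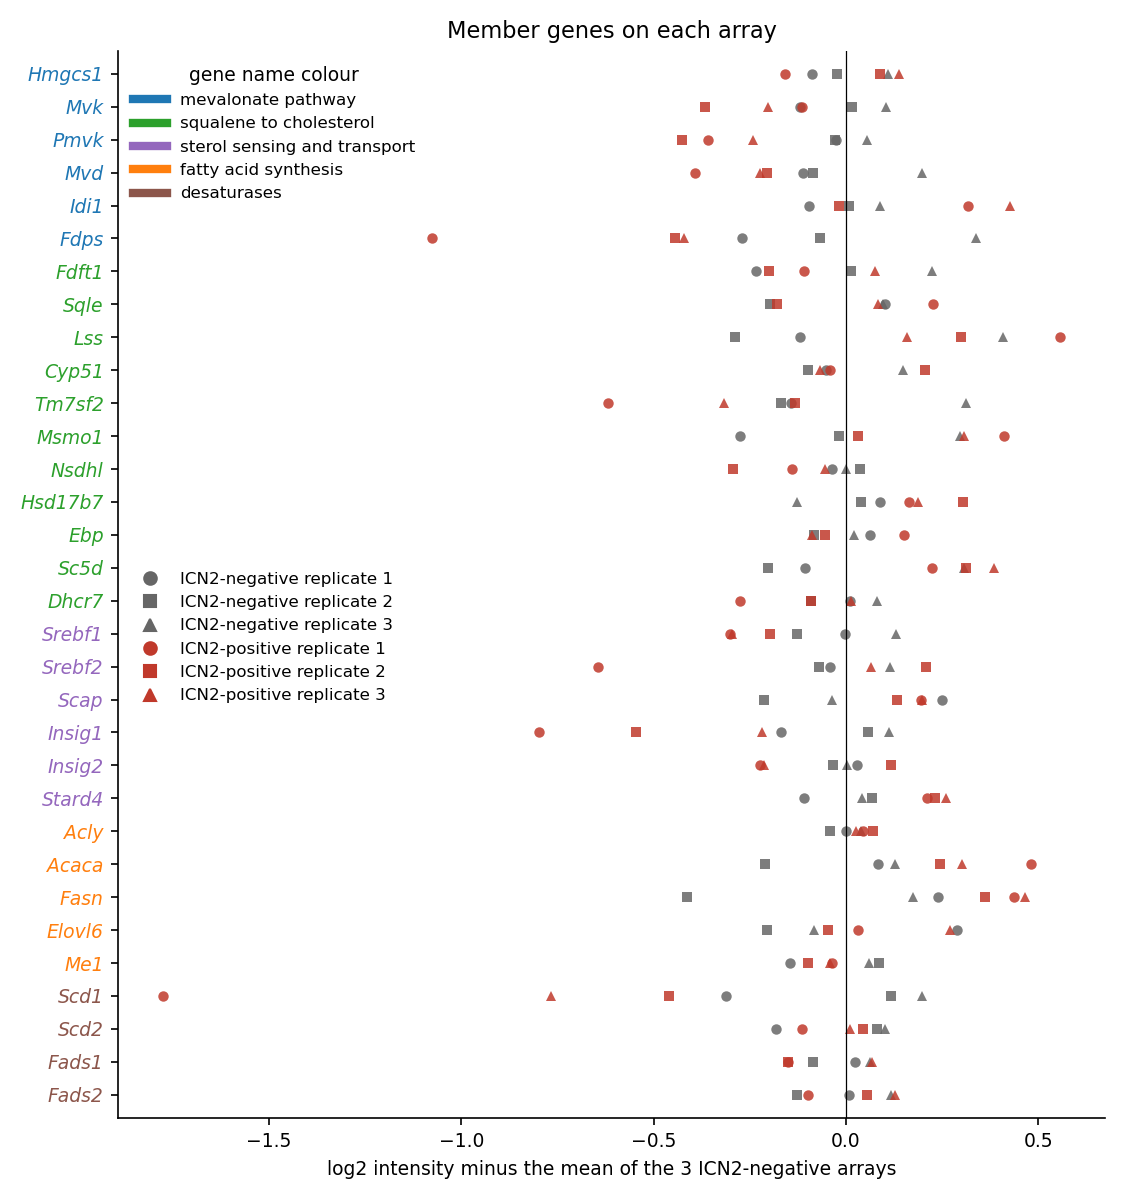
Deviation of each measured gene on each array from the mean of the 3 ICN2-negative arrays (log2), with gene names coloured by role, ICN2-negative arrays in grey and ICN2-positive arrays in red; symbols mark the replicate number. The red circles, ICN2-positive replicate 1, reach furthest to the left, at Scd1 and Fdps, whereas most points lie within 0.5 of 0.

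Several genes were read by more than 1 probe set. The 32 measured genes had 74 probe sets, 63 of them past the filter on dim values. None of the 63 passed at an adjusted p of 0.05 over 23444 probe sets in limma, where 3.14% of all did, and 12 had an unadjusted p under 0.05, where 25.8% of all did. For 12 of the 20 genes with several such probe sets, all differences had one sign. Both Scd1 probe sets were lower (-1.0 and -0.86), the Srebf2 probe sets differed by -0.12 and -0.17, and the 3 Lss probe sets differed by 0.34, 0.37 and 0.46. The 5 Hmgcs1 probe sets lay between -0.11 and 0.023.

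**Figure D4:**
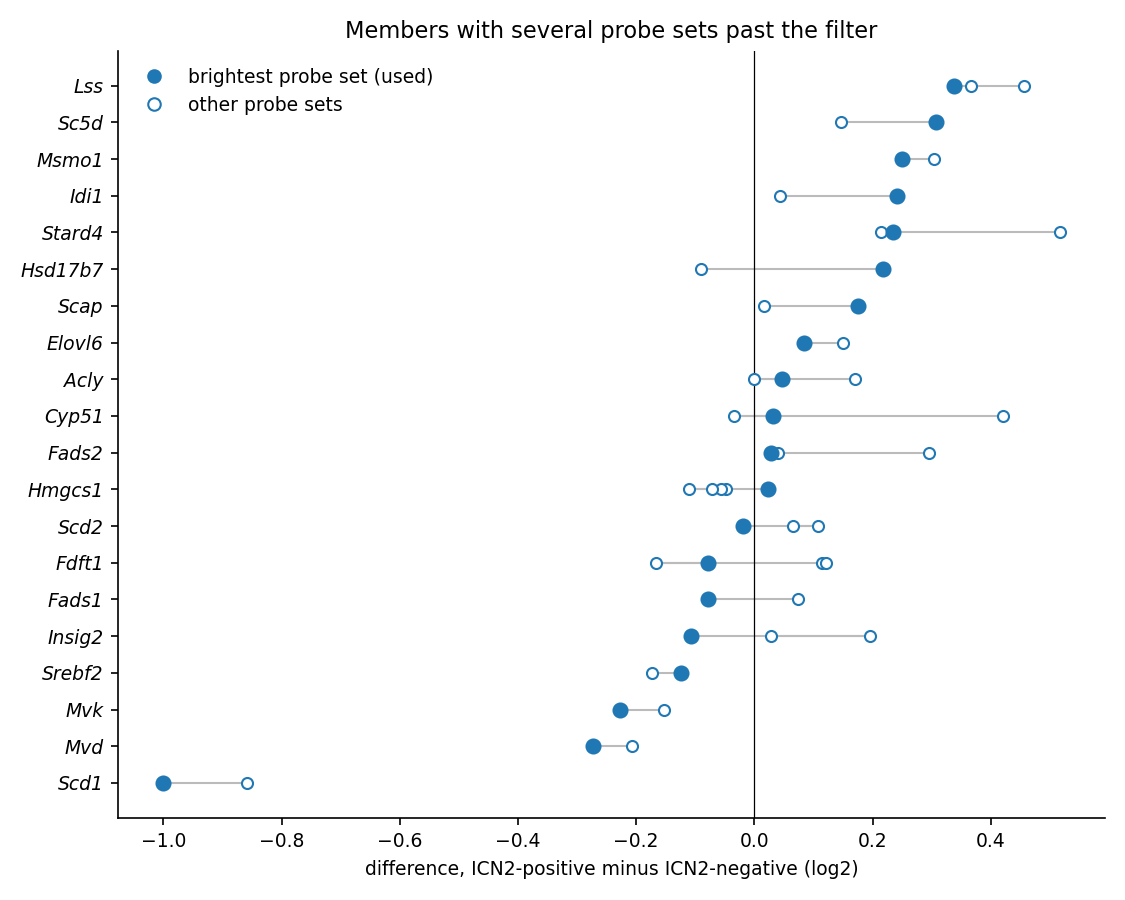
Difference in log2 intensity, ICN2-positive minus ICN2-negative, for every probe set past the filter of the 20 genes with more than 1; filled points are the brightest probe set, which gives the gene its value here, and open points the others. Scd1 has both points far to the left, whereas the points of Cyp51 spread from -0.035 to 0.42.

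The neighbouring genes of lipid metabolism, a list of 43 that holds none of the above, were read the same way. Of 37 measured, 36 were tested: 1 was higher, none was lower and 35 did not pass in limma (background 2.58% higher and 1.77% lower). At an unadjusted p of 0.05, 14 of the 36 passed in limma (38.9%, against 27.4% of all genes), 6 higher and 8 lower, and the median difference was -0.059. The gene that rose was Tmem97, an endoplasmic reticulum protein that binds the cholesterol transporter Npc1 and is induced by sterol loss. It lay at 11.63, 11.44 and 11.73 in ICN2-negative and at 12.20, 12.09 and 12.15 in ICN2-positive samples. Every ICN2-positive array was higher, by 0.55 ± 0.094 on average (1.46-fold, adjusted p = 0.04 in limma). The call did not hold when any single array was left out (adjusted p = 0.0603 to 0.123), nor with the replicate number as a term (0.0654).

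Among the 14 tested genes of fatty acid supply and activation, 9 had higher means and none passed. Gpam, which starts triglyceride and phospholipid synthesis, had the smallest p, at 11.26, 10.97 and 10.92 against 11.72, 11.54 and 11.61 (difference 0.57, adjusted p = 0.0552 in limma). Among the 5 tested genes of the isoprenoid and sterol branch, Acat1, the mitochondrial thiolase, had the smallest p, with a difference of -0.27 (adjusted p = 0.0651 in limma), and none passed. None of the 4 tested genes of SREBP processing and sterol-linked degradation passed, and Rnf139, a ubiquitin ligase of that membrane, was nearest with a difference of -0.15 (adjusted p = 0.262 in limma). None of the 5 tested genes of sterol efflux passed. Abca1, the cholesterol exporter, was the one of smallest p, at 5.52, 7.23 and 6.34 against 7.31, 8.51 and 8.04. The groups did not overlap, but the ICN2-negative arrays were widely spread, and the difference of 1.59 (3.01-fold, 95% interval 0.33 to 2.86) had an adjusted p of 0.123 in limma.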

How the data were processed

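Expression was measured on Affymetrix mouse arrays in 3 ICN2-negative and 3 ICN2-positive samples. RNA (5 ng) was amplified with an Ovation kit, per the labels' protocols. The deposited table held 1 linear intensity per probe set and array, made by the authors with RMA, per the submitters' processing notes, its version not given in the sources used here. RMA gives all arrays nearly the same distribution, so a change in RNA per cell would not be seen, and no measured background lies behind the values. Here log2 was taken. Of 45101 probe sets, 34958 had exactly 1 gene in the platform annotation. A gene was tested where its brightest probe set exceeded the 40th percentile of intensity on 3 or more of the 6 arrays.

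The test was limma 3.58.1 (R 4.3.3; lmFit and eBayes, two-sided, no covariate), adjusted over 12835 genes, with a threshold of 0.05. It was tested on simulated data with independent normal noise, added differences larger than most measured here, and no outlying array. That simulation does not show how often differences of the size measured here would be found. An exact permutation test of 3 against 3 cannot go below p = 0.1. The members and lists were chosen with earlier results of these data known. Values on every array are given for the 10 members of smallest p, and for other pathway genes those called or of smallest p in each list. Others were named after their values were seen. Alternatives covered the filter, normalization, pseudocount, variance model, weights per array, the choice of probe set, a block for the replicate number and each array left out.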

Additional observations from a re-analysis of the deposited data

How the results depend on the processing

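No member tested passed under 17 of the 18 alternatives, with smallest adjusted p-values from 0.0535 to 0.187 in limma. Nor did any member probe set with no filter. Without the probe sets open to several transcripts, 29 members were tested, and Pmvk and Srebf1, which have no others, were not. With array weights 4 passed, Pmvk (-0.28), Srebf1 (-0.32), Stard4 (0.25) and Scd1 (-0.82), while the calls over all genes went from 558 to 3261. The calls over all genes were 846 with an intensity trend in the variance, 341 with the replicate block, and 99 (without ICN2-negative replicate 2) to 768 (without ICN2-positive replicate 1) with 1 array left out, where the number of members called was 0 each time. Same-numbered arrays had deviations correlated at 0.18, 0.13 and 0.093, and differently numbered arrays at -0.22 to 0.16. The numbers were not taken to pair the samples, and these values do not settle whether they do. With the replicate block no member passed (smallest adjusted p = 0.0797 in limma). The sign held for 18 members in every alternative that tested them. For the other 13 it turned under at least 1 alternative, 29 times in all, and the cause was not tested. These members had differences close to 0, except Hsd17b7 (0.22), Srebf2 (-0.12) and Insig2 (-0.11). Repeated quantile normalization gave Ebp -0.033. Array weights gave Cyp51 -0.081, Ebp -0.0825, Srebf2 0.024 and Fads1 0.022. The mean of probe sets gave Hmgcs1 -0.053, Insig2 0.039 and Scd2 0.051. Leaving out probe sets open to several transcripts, Hmgcs1 was -0.057, Hsd17b7 -0.091 and Acly -9e-04. With 1 array left out the ranges were -0.035 to 0.11 for Hmgcs1, -0.054 to 0.16 for Sqle, -0.055 to 0.11 for Cyp51, -0.072 to 0.047 for Ebp, -0.018 to 0.23 for Elovl6, -0.11 to 0.031 for Scd2, -0.036 to 0.091 for Fads2, -0.20 to 0.034 for Fdft1 and -0.29 to 0.14 for Srebf2. With 1 array left out, Mvd also moved by over 1.5 times (-0.18 without ICN2-negative replicate 3), as did Nsdhl (-0.098 without ICN2-positive replicate 2). So did Idi1 (0.15 to 0.37), Dhcr7 (-0.18 to -0.039), Insig2 (-0.22 to -0.049), Fads1 (-0.15 to -0.041) and Acly (0.026 to 0.066). Filtering probe sets before choosing the brightest, an alternative added after seeing the data, gave 560 calls over all genes and no member. Dim genes such as Me1 cannot be read, since no background was measured.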

Other observations

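Some probe sets gave a different picture from the brightest one of their gene, and these were picked out after their values were seen. The dimmest tested probe set of Cyp51, the lanosterol demethylase, lay at 5.79, 5.78 and 5.82 on the ICN2-negative arrays and at 6.10, 6.28 and 6.28 on the ICN2-positive arrays. Its difference of 0.42 had an adjusted p of 0.0568 in limma over probe sets, the smallest of the 63, while the 2 brighter Cyp51 probe sets differed by 0.032 and -0.035. The dimmest probe set of Fads2 differed by 0.30 (adjusted p = 0.131 in limma) and its brighter ones by 0.028 and 0.041. The dimmest of Stard4 lay at 9.26 on ICN2-positive replicate 1, against 8.54 and 8.77 on the other ICN2-positive arrays.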
